A study of Mus musculus with 7 samples.

Results

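The enzymes that carry glucose carbon through glycolysis, the pentose phosphate pathway, the pyruvate dehydrogenase complex and the citrate cycle were compared between cultured cells of the mouse heart and heart tissue. They are 41 genes of the 34792 gene names on the array: 2 glucose transporters, 17 glycolytic enzymes, 4 pentose phosphate enzymes, 4 pyruvate dehydrogenase subunits and 14 citrate cycle enzymes. Members were chosen by name from a list of enzymes, and 60 probes carried those names. Each sample was hybridised to 1 single-colour Agilent array. The cells were cardiac mesenchymal progenitors (CMPs), stromal cells grown from adult C57BL/6 hearts on collagen I in DMEM/F12, to which serum (10%) and bFGF, a growth factor (40 ng/ml), were added. Postmortem CMPs came from tissue kept for 24 h at 4 °C (1 atrial and 1 ventricular array), and living CMPs from living tissue (1 atrial and 1 ventricular array). Heart RNA came from adult heart (1 array, a commercial preparation whose strain and age the labels do not give) and from C57BL/6 fetal hearts of embryonic day 16.5. The 2 fetal arrays were 1 of the Tg(Myh6-EGFP)MG2 line, which carries green fluorescent protein under the promoter of a cardiac myosin gene, and 1 of wild type.

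Glycolysis splits glucose into pyruvate in the cytosol, and several of its steps have a widely used isozyme beside one of striated muscle. The pentose phosphate pathway branches off at glucose 6-phosphate and supplies NADPH and ribose for biosynthesis. Pyruvate enters mitochondria, where pyruvate dehydrogenase and the citrate cycle oxidise it. The heart before birth depends largely on glycolysis, while the adult heart draws most of its energy from fatty acid oxidation, whose acetyl units also pass through the citrate cycle.

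Values below are log2 processed signals minus the array's 75th percentile, so 0 is that percentile and a step of 1 is a doubling. Where 4 CMP values stand together, the order is postmortem (atrial, ventricular) and then living (atrial, ventricular). All 41 members were well above background on all 7 arrays, no spot was saturated, and every member was tested in each comparison. The postmortem atrial array held the lowest CMP value for 19 members and the living ventricular array the highest for 18. Of 8 cardiomyocyte markers, each CMP array had 1 to 3 well above background, with summed linear signals of 1.41 to 17.4, against all 8 on each heart array, with sums of 2640 to 7330. Myh6, Tnni3, Actc1, Myl3 and Pln were not well above background on any CMP array. The 7 stromal markers summed to 1556 to 2078 in CMPs and to 430 to 586 in hearts, sums set mostly by the brightest markers. All 7 had a log2 difference above 0 in CMPs against fetal heart. Against adult heart 5 were above 0 and 2 below, the lowest at -0.92. In such bulk RNA, fewer cells of a type and less RNA per cell cannot be told apart. All arrays shared 1 slide and 1 scan, with the CMPs in its row 1 and the hearts in its row 2, so slide row and the contrast of cells with hearts cannot be told apart. Nothing in the labels says that arrays of a group are separate animals or cultures, so p-values measure only spread between these samples. They leave part of it out, since the fit has terms for CMP source and chamber, whose differences do not enter the errors. Aldoc, for example, had an SD of 1.64 over the 4 CMP arrays and an SE of 0.31 against fetal heart.

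**Figure D1:**
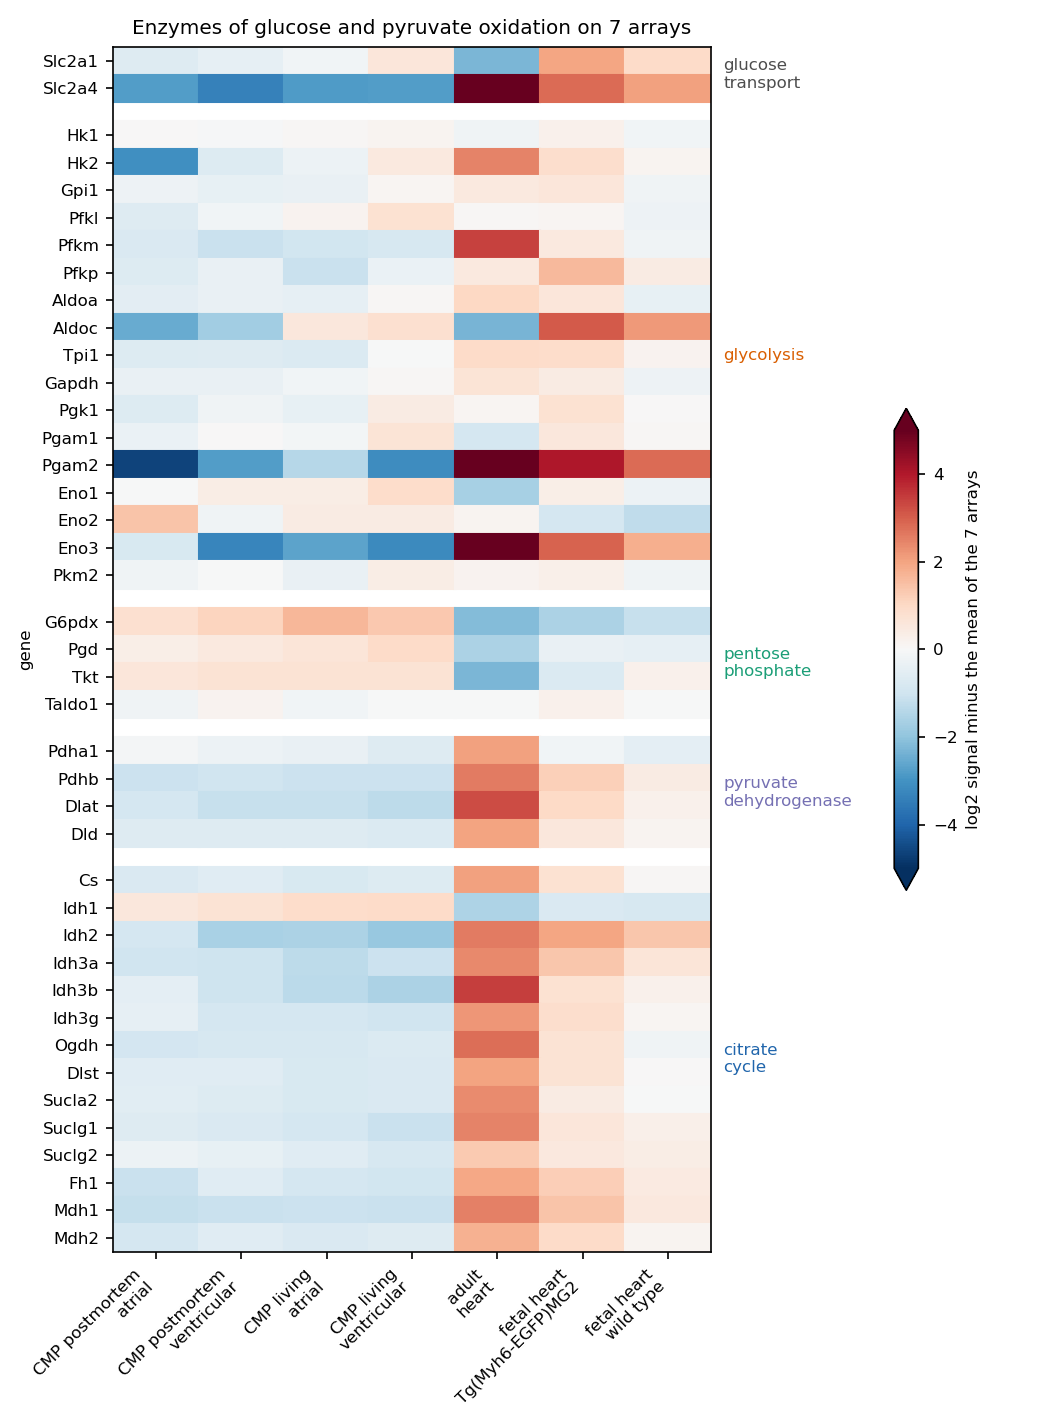
Heat map of the 41 members (rows, grouped by pathway) on the 7 arrays (columns), coloured by log2 signal minus the member's mean over the 7 arrays, with the scale ending at -5 and 5. Citrate cycle members other than Idh1 were lower in the 4 CMP arrays and highest in adult heart, and G6pdx, Pgd and Idh1 ran the other way.

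Against fetal heart, 30 of the 41 members passed the test in CMPs (limma, adjusted p under 0.05), 5 higher and 25 lower, where 48% of the 20052 genes tested were called, 22.8% higher and 25.2% lower. The median difference of the members was -1.06, and that of all genes tested was -0.01. Against adult heart, 32 members were called, 8 higher and 24 lower, where 49.3% of all genes tested were called, 24.6% in each direction. Here the members' median was -2.38, and the median of all genes was close to 0. Adult heart set against fetal heart gave 24 called members, 18 higher and 6 lower, where 37% of all genes were called, 18.8% higher and 18.2% lower. The members' median was 1.09 in that comparison, and 0.09 over all genes. Called shares were thus above the background in all 3, and in the lower direction for CMPs and the higher direction for adult heart. Without the postmortem atrial array, 30 members were called against fetal and 31 against adult heart. These comparisons share arrays (the CMPs, the single adult array or the fetal pair), so they are not independent of one another.

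The fetal pair sets much of the error. The transgenic heart was above the wild-type heart for 39 of 41 members, with a median of 0.70 and a range of -0.97 to 1.22. Of 19372 genes well above background on both fetal arrays, 62.2% were higher in the transgenic heart, with a median of 0.14. After quantile normalization, 36 members were still higher in the transgenic heart, with a median of 0.31. Without the transgenic array 26 members were called between CMPs and fetal heart, and without the wild-type array 31. Genotype, litter and array cannot be told apart in that pair, and each fetal mean below is the mean of these unequal arrays.

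**Figure D2:**
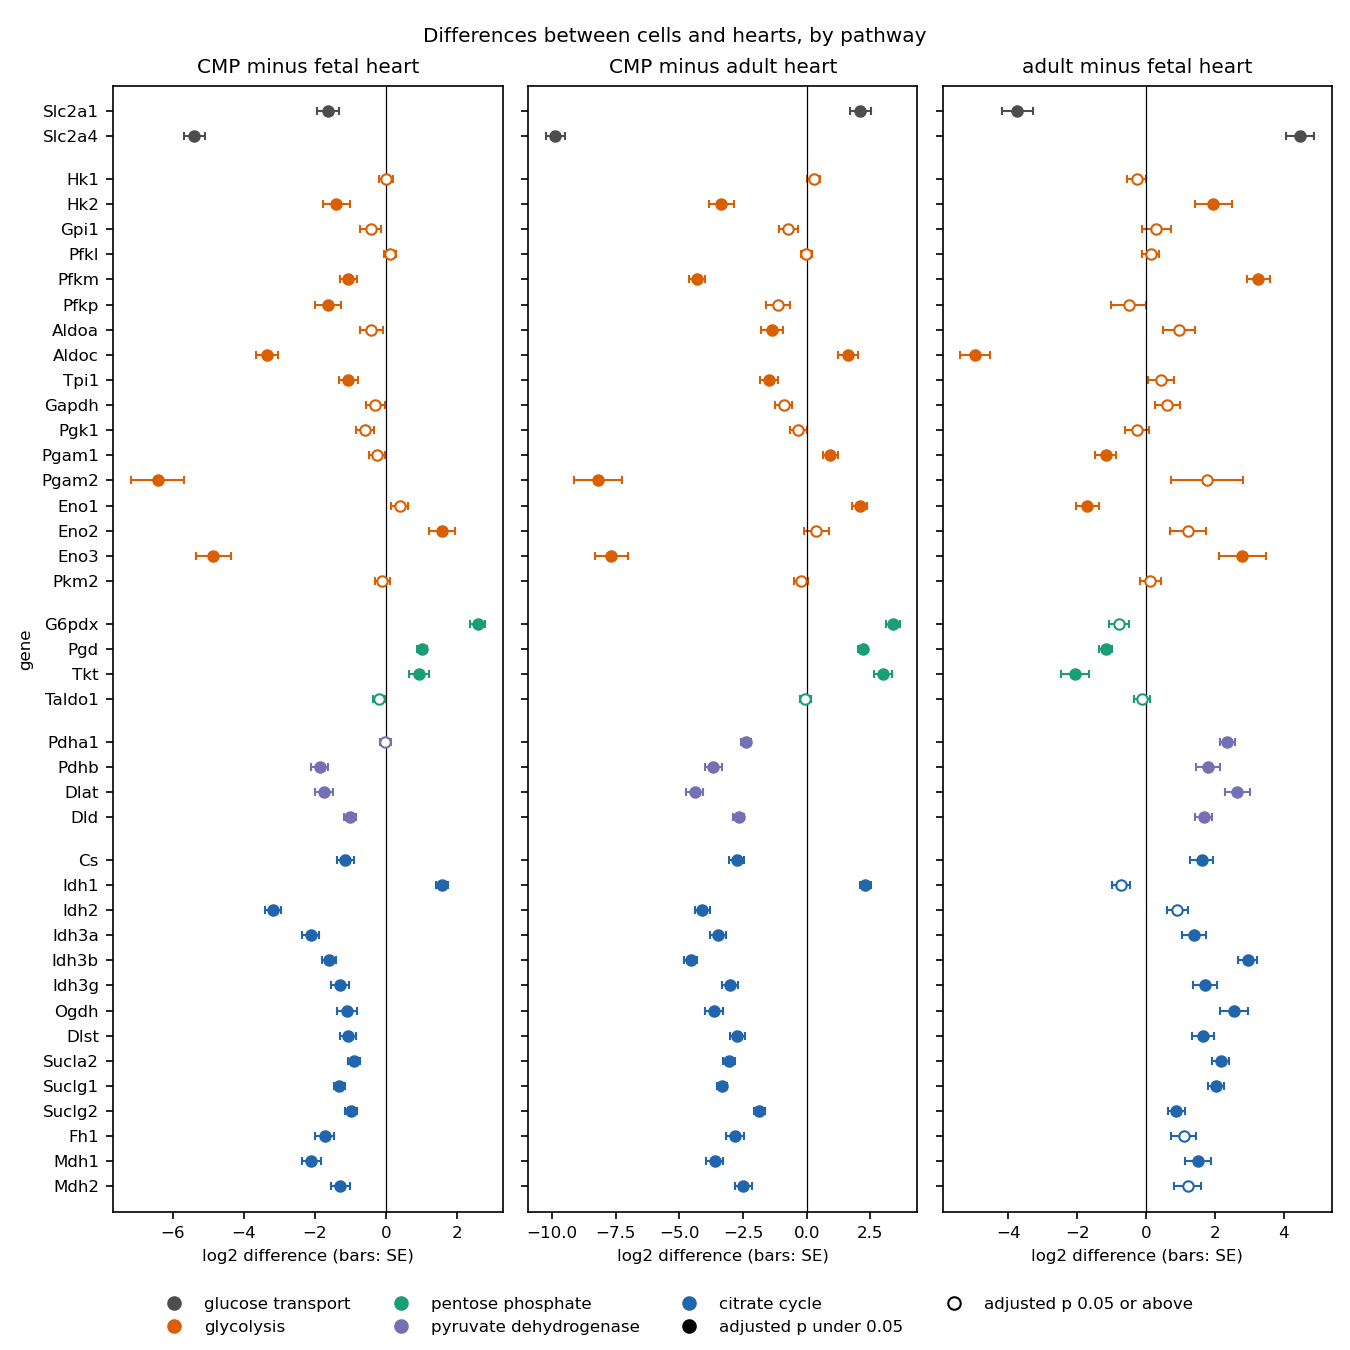
Log2 difference of each member in CMPs minus fetal heart, CMPs minus adult heart, and adult minus fetal heart (points, with SE as bars, from 4, 1 and 2 arrays), filled where the adjusted p was under 0.05. The citrate cycle column of points lies below 0 in both CMP panels except Idh1, while glycolysis scatters from -6.43 to 1.59 against fetal heart.

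Both glucose transporters passed the test in each comparison, in a different order across the samples. The shares over all genes tested were 48% for CMPs against fetal heart, 49.3% against adult heart and 37% for adult against fetal heart. Slc2a4, the insulin-responsive transporter of muscle and fat known as GLUT4, had signals of -1.88, -2.50, -1.94 and -1.89 in CMPs, against 7.82 in adult heart and 3.73 and 2.96 in transgenic and wild-type fetal hearts. It was 937-fold lower in CMPs than in adult heart (difference -9.87 ± 0.37 SE, adjusted p = 0.000200) and 42.1-fold lower than in fetal heart (-5.40 ± 0.29, adjusted p = 0.000200). Among all genes tested, 0.459% lay further below adult heart. Slc2a1, the basal transporter GLUT1, read 3.58, 3.79, 4.06 and 4.85 in CMPs, 1.96 in adult heart, and 6.22 and 5.19 in the fetal hearts. CMPs stood between the hearts for it, lower than fetal heart (-1.63 ± 0.32, adjusted p = 0.00919) and 4.31-fold higher than adult heart (2.11 ± 0.41, adjusted p = 0.00920). Adult heart was 13.3-fold below fetal heart for Slc2a1 and 22.3-fold above it for Slc2a4 (adjusted p = 0.00354 and 0.00183).

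Of the 17 glycolytic enzymes, 1 was called higher and 7 lower in CMPs against fetal heart, and 3 higher and 6 lower against adult heart, with medians of -0.42 and -0.72. Adult against fetal heart gave 3 higher and 3 lower. In these 3 comparisons 47.1%, 52.9% and 35.3% of the glycolytic enzymes were called, close to the 48%, 49.3% and 37% of all genes tested. The 2 largest differences of glycolytic enzymes in CMPs, against either heart, were those of striated muscle isozymes. Pgam2, the muscle phosphoglycerate mutase, had signals of -1.54, 0.30, 1.67 and -0.05 in CMPs, against 8.29 in adult heart and 7.14 and 5.92 in transgenic and wild-type fetal hearts. No CMP array came near a heart array, but the CMPs themselves spread over more than 3 log2 units. Pgam2 was 86.3-fold lower than in fetal heart (-6.43 ± 0.74, adjusted p = 0.00162) and 294-fold lower than in adult heart (-8.20 ± 0.96, adjusted p = 0.00185), and adult minus fetal heart was 1.77 ± 1.05 (adjusted p = 0.232). Eno3, the muscle enolase, read 3.15, 0.65, 1.24 and 0.74 in CMPs, 9.11 in adult heart, and 6.88 and 5.74 in the fetal hearts. Its differences were -4.87 ± 0.49 against fetal and -7.67 ± 0.63 against adult heart (adjusted p = 0.00108 and 0.000747), or 29.2-fold and 203-fold lower.

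The widely expressed partners of these enzymes did not share that order. Pgam1, the other phosphoglycerate mutase, had signals of 6.84, 7.20, 7.02 and 7.87 in CMPs, against 6.30 in adult heart and 7.72 and 7.23 in the fetal hearts. It was 1.91-fold higher in CMPs than in adult heart (0.93 ± 0.28, adjusted p = 0.0381), while the difference from fetal heart was -0.24 ± 0.22 (adjusted p = 0.398). Eno1, the common enolase, read 7.56, 7.94, 7.95 and 8.50 in CMPs, 5.90 in adult heart, and 7.92 and 7.28 in the fetal hearts. All 4 CMP arrays lay above adult heart, by 2.09 ± 0.30 in the fit (4.25-fold, adjusted p = 0.00342), and they overlapped the fetal arrays. Eno2, the neuronal enolase, was 3.01-fold higher in CMPs than in fetal heart (1.59 ± 0.37, adjusted p = 0.0172), at levels near or below the 75th percentile except in postmortem atrial cells, where it read 1.26.

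The mouse promoters of the phosphoglycerate mutase pair are shown because the pair differed from adult heart in opposite directions, Pgam2 lower and Pgam1 higher in CMPs. They are the 250 bases before the transcription start in the RefSeq table of build GRCm38.p6, Pgam2 at chr11:5803797-5804046 on the minus strand and Pgam1 at chr19:41911621-41911870 on the plus strand, each read along its gene. Capitals mark a match on either strand to the consensus of MEF2, a muscle transcription factor, in Pgam2, and to ACGTG, the core of the hypoxia response element, in Pgam1.
Pgam2: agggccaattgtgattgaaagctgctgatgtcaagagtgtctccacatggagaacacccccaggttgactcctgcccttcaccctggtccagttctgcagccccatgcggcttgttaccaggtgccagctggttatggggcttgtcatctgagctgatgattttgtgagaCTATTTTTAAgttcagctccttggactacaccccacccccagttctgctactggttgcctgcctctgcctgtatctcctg
Pgam1: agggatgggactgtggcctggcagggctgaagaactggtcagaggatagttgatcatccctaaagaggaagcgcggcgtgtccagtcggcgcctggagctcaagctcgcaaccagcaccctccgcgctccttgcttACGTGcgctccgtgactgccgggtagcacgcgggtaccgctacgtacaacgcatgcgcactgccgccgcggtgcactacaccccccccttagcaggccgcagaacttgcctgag
Of the 41 members, 39 had a promoter in that table, and Pgam2 was the 1 member with a MEF2 consensus match; 3.42% of all 27025 genes in the table had one. ACGTG stood before 11 of 39 members (28.2%) and before 18.5% of all genes in the table: Slc2a1, Hk2, Pfkm, Aldoa, Pgk1, Pgam1, Pkm2, Pdhb, Idh3g, Ogdh and Mdh1. The letters AAGGTCA, a binding site of estrogen-related receptors, were found in 1 member, Eno1, and in 4.7% of all genes. A match is a string of letters, and no binding was measured here.

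At the hexokinase step, which commits glucose to the cell, Hk2 (the insulin-regulated form of muscle) had signals of -1.15, 1.21, 1.62 and 2.40 in CMPs, against 4.37 in adult heart and 2.79 and 2.05 in the fetal hearts. All CMP arrays lay below adult heart, by 3.35 ± 0.49 in the fit (10.2-fold, adjusted p = 0.00376), whereas the living ventricular array overlapped the fetal pair (-1.40 ± 0.38, adjusted p = 0.0292). Hk1, the common hexokinase, averaged 8.14 ± 0.09 in CMPs (SD, n = 4) and 8.14 ± 0.29 in fetal hearts (SD, n = 2), with 7.87 in adult heart, and was not called in any comparison. Its other 2 probes gave CMP minus fetal differences of -0.80 and -0.46, where the probe used here gave a mean difference of 0.00. Against adult heart those 2 probes were lower in CMPs, by -1.29 and -1.03, where the probe used here gave 0.27.

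Phosphofructokinase, the main control point of glycolysis, had 3 isozymes. Pfkm, the muscle form, read 3.54, 3.19, 3.37 and 3.47 in CMPs, 7.71 in adult heart, and 4.80 and 4.11 in the fetal hearts. It was lower in CMPs than in adult heart (-4.32 ± 0.31, adjusted p = 0.000559) and 2.09-fold lower than in fetal heart (adjusted p = 0.0154), and adult exceeded fetal heart 9.57-fold (adjusted p = 0.00242). Pfkp, the platelet form, was 3.11-fold lower in CMPs than in fetal heart (-1.64 ± 0.36, adjusted p = 0.0145), and its difference from adult heart was -1.13 ± 0.47 (adjusted p = 0.0946). Pfkl, the liver form, was called in none of the heart comparisons.

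Aldolase cleaves fructose 1,6-bisphosphate into triose phosphates. Aldoc, the brain isozyme, had signals of -1.53, -0.74, 1.53 and 1.76 in CMPs, against -1.37 in adult heart and 4.05 and 3.13 in the fetal hearts. CMPs were 10.1-fold below fetal heart (-3.34 ± 0.31, adjusted p = 0.000835); against adult heart they were called 3.07-fold higher (1.62 ± 0.40, adjusted p = 0.0206), although the postmortem atrial array lay below the adult one. Adult heart was 31.0-fold below fetal heart for Aldoc (adjusted p = 0.00168). Aldoa, the muscle and general aldolase, was 2.57-fold lower in CMPs than in adult heart (-1.36 ± 0.42, adjusted p = 0.0413) and differed by -0.41 ± 0.32 from fetal heart (adjusted p = 0.351).

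The remaining glycolytic steps have mostly 1 enzyme. Tpi1, which interconverts the triose phosphates, was 2.08-fold lower in CMPs than in fetal heart and 2.81-fold lower than in adult heart (adjusted p = 0.0239 and 0.0176). Gpi1 (glucose phosphate isomerase), Pgk1 (phosphoglycerate kinase) and Pkm2 (pyruvate kinase) were called in no heart comparison, with CMP minus fetal differences of -0.42, -0.59 and -0.10. The single Pgk1 probe is placed on chromosome 3 in the deposited table, although the gene is on chromosome X, so its values are uncertain. Gapdh, the glyceraldehyde phosphate dehydrogenase often used as a reference gene, likewise was not called, with CMP minus adult and CMP minus fetal differences of -0.91 ± 0.34 and -0.29 ± 0.26 (adjusted p = 0.0712 and 0.406). Against adult heart it was called lower under 6 of the alternatives run, among them the mean of its probes. It had 8 probes, of which 2, the brightest included, are placed on chromosomes 7 and 8 although the gene is on chromosome 6; copies of Gapdh exist in the genome, so the probes may share transcripts. Across those 8 probes the mean CMP minus adult difference ran from -1.21 to -0.91.

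**Figure D3:**
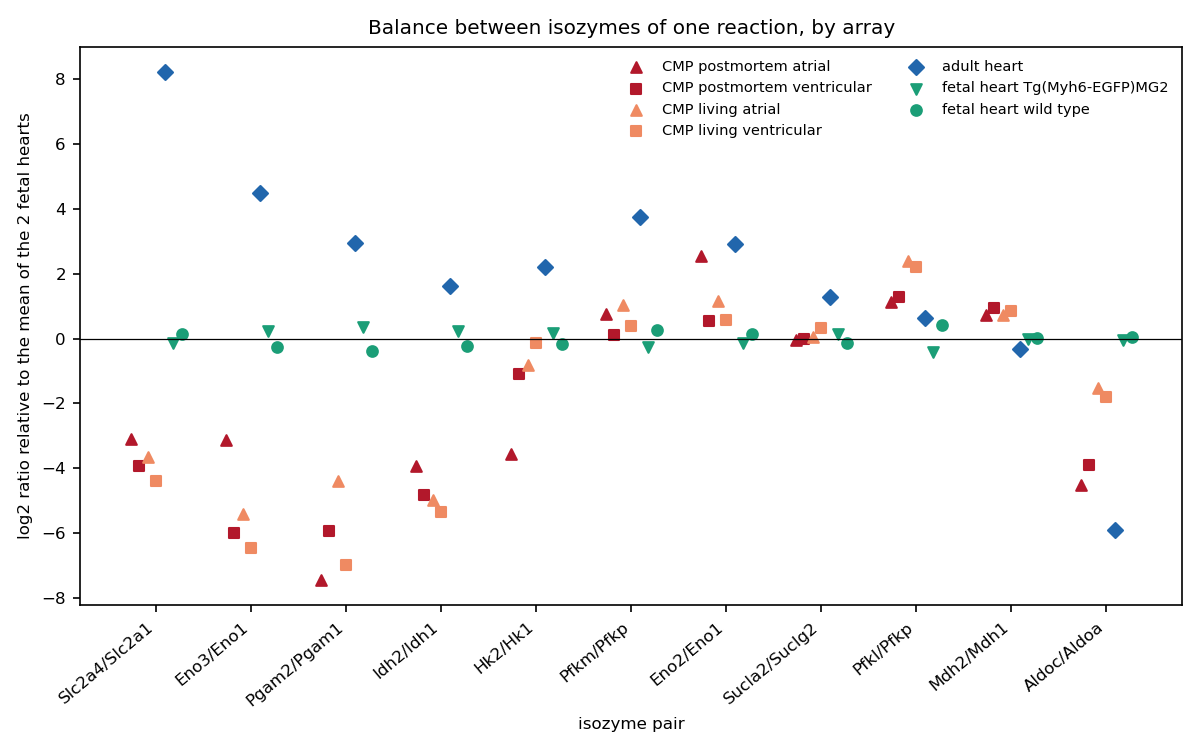
Log2 ratio of isozyme pairs on each of the 7 arrays (points), relative to the mean of the 2 fetal hearts, ordered by the CMP minus adult difference. For Slc2a4/Slc2a1, Eno3/Eno1, Pgam2/Pgam1 and Idh2/Idh1 all 4 CMP arrays lie below both fetal arrays and the adult array above them.

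Ratios of isozymes within an array do not depend on its scaling factor, and they showed how unequally the forms changed. The log2 ratio of Pgam2 to Pgam1 stood at -7.43, -5.94, -4.40 and -6.98 in CMPs relative to the fetal mean, and at 2.94 in adult heart. Eno3 over Eno1 ran from -6.47 in living ventricular to -3.12 in postmortem atrial CMPs and was 4.50 in adult heart. For Slc2a4 over Slc2a1 the CMPs read -3.10, -3.93, -3.65 and -4.38, with adult heart at 8.21. In these 3 pairs every CMP array was below every heart array. Over the 11 ratios computed, an exact two-sided permutation test of the 4 CMP arrays against the 3 hearts can give no p below 0.0571, so it cannot pass the threshold.

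Pfkl over Pfkp ran the other way: 1.13, 1.28, 2.39 and 2.22 in CMPs relative to the fetal mean, against 0.64 in adult heart. Hk2 over Hk1 was lower in all CMP arrays than in adult heart (2.22), with -3.56 in postmortem atrial cells and -0.13 in living ventricular cells. The living ventricular value lay within the fetal pair, at -0.17 in wild-type and 0.17 in transgenic fetal heart. Pfkm over Pfkp read 0.77, 0.13, 1.03 and 0.38 in CMPs and 3.77 in adult heart, with wild-type fetal heart at 0.26. For this pair, and for Hk2 over Hk1, Eno2 over Eno1, Aldoc over Aldoa and Sucla2 over Suclg2, the CMP range overlapped that of the hearts. Among the citrate cycle pairs, Idh2 over Idh1 stood at -3.93, -4.82, -4.99 and -5.34 in CMPs and was 1.63 in adult heart. Mdh2 over Mdh1 was 0.72 to 0.95 in CMPs and -0.31 in adult heart.

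The pentose phosphate pathway was the group in which CMPs were higher. In each comparison with a heart, 3 of 4 members were called higher in CMPs and none lower, with medians of 0.98 against fetal and 2.60 against adult heart. The shares of all genes tested that were called higher were 22.8% against fetal and 24.6% against adult heart. G6pdx, the X-linked glucose 6-phosphate dehydrogenase that sets the rate of the oxidative branch, had signals of 4.79, 5.09, 5.62 and 5.31 in CMPs, against 1.82 in adult heart and 2.39 and 2.83 in the fetal hearts. Each CMP array exceeded each heart array, and the fold was 6.02 against fetal (2.59 ± 0.21, adjusted p = 0.000558) and 10.4 against adult heart (3.38 ± 0.27, adjusted p = 0.000694). Of all genes tested, 4.64% lay further above fetal heart and 2.98% further above adult heart.

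Pgd, which takes the next oxidative step and yields NADPH, read 4.51, 4.66, 4.81 and 5.15 in CMPs, 2.58 in adult heart, and 3.79 and 3.73 in the fetal hearts. Its fold was 2.03 against fetal and 4.59 against adult heart (adjusted p = 0.00256 and 0.000708). Tkt, the transketolase of the non-oxidative branch, had signals of 6.26, 6.41, 6.38 and 6.41 in CMPs, against 3.37 in adult heart and 4.95 and 5.92 in transgenic and wild-type fetal hearts. The CMPs lay within a narrow band, 7.97-fold above adult heart (2.99 ± 0.37, adjusted p = 0.00220) and 1.91-fold above the unequal fetal pair (0.93 ± 0.29, adjusted p = 0.0432). Tkt was no longer called against fetal heart without the transgenic array or after quantile normalization. That call was also lost with centring on the median of probes well above background, and with the limma trend off. Taldo1, the transaldolase of the same branch, was called nowhere, at 6.47 ± 0.18 in CMPs (SD, n = 4), 6.53 in adult heart and 6.66 ± 0.19 in fetal hearts (SD, n = 2). Adult heart was below fetal heart for Pgd and Tkt, 2.26-fold and 4.18-fold (adjusted p = 0.00876 and 0.0144).

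The pyruvate dehydrogenase complex links glycolysis to the citrate cycle. CMPs were called lower for 4 of 4 subunits against adult heart and for 3 of 4 against fetal heart. In these comparisons 24.6% and 25.2% of all genes tested were called lower. Pdha1, the catalytic alpha subunit that is switched off by phosphorylation, had signals of 3.38, 3.19, 3.11 and 2.85 in CMPs, 5.51 in adult heart, and 3.31 and 3.00 in the fetal hearts. It was 5.21-fold below adult heart (-2.38 ± 0.20, adjusted p = 0.000810), while its difference from fetal heart was -0.02 ± 0.16 (adjusted p = 0.929) with overlapping arrays. Its partner Pdhb read 4.42, 4.50, 4.41 and 4.42 in CMPs, 8.10 in adult heart, and 6.70 and 5.91 in the fetal hearts. Unlike the alpha subunit, it was lower in all CMP arrays than in any heart, 3.64-fold against fetal and 12.7-fold against adult heart (adjusted p = 0.00252 and 0.000857).

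Dlat, the acetyltransferase core, was 3.35-fold and 21.0-fold lower in CMPs than in fetal and in adult heart (adjusted p = 0.00357 and 0.000613). Dld, the lipoamide dehydrogenase shared with the oxoglutarate complex, was 2.00-fold and 6.41-fold lower (adjusted p = 0.00649 and 0.000797). All 4 subunits were called higher in adult than in fetal heart, by 1.68 (Dld) to 2.65 (Dlat) on the log2 scale, where 18.8% of all genes tested were. The dimmest of 3 Pdhb probes disagreed against fetal heart, with a CMP minus fetal difference of 0.50 where the others gave -1.86 and -2.05.

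All 14 citrate cycle members were called in CMPs against either heart: 13 lower and Idh1 higher. Among all genes tested, 48% were called against fetal heart (25.2% lower) and 49.3% against adult heart (24.6% lower). Their median difference was -1.28 against fetal and -3.03 against adult heart. By array, the median signal of the 14 was 4.25, 4.46, 4.26 and 4.25 in CMPs, against 7.58 in adult heart and 6.03 and 5.22 in the fetal hearts. Cs, the citrate synthase that starts the cycle, read 6.36, 6.52, 6.32 and 6.46 in CMPs, 9.17 in adult heart, and 7.90 and 7.21 in the fetal hearts. Every CMP array was below every heart array for it, 2.20-fold against fetal (adjusted p = 0.0114) and 6.74-fold against adult heart (adjusted p = 0.00155).

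The isocitrate dehydrogenases held both extremes of the cycle. Idh2, the mitochondrial NADP-linked form, had signals of 5.82, 5.08, 5.11 and 4.80 in CMPs, against 9.30 in adult heart and 8.68 and 8.10 in the fetal hearts. It showed the largest fall of the cycle against fetal heart, 9.11-fold (-3.19 ± 0.22, adjusted p = 0.000384), and a 17.1-fold fall against adult heart (adjusted p = 0.000542). Idh1, the cytosolic NADP-linked form, read 1.19, 1.33, 1.53 and 1.58 in CMPs, -0.90 in adult heart, and -0.13 and -0.22 in the fetal hearts. It was higher in CMPs than in fetal heart by 1.58 ± 0.18 and than in adult heart by 2.31 ± 0.23 (adjusted p = 0.00155 and 0.00122), the only member of the cycle list called in that direction. The cytosolic form stands outside the mitochondrial cycle, as does Mdh1, the cytosolic malate dehydrogenase, which is counted among the lower members.

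The NAD-linked isocitrate dehydrogenase that serves the cycle is built from Idh3a, Idh3b and Idh3g, and all 3 were lower in CMPs. Idh3b, a regulatory subunit, had signals of 3.93, 3.37, 3.07 and 2.83 in CMPs, 7.85 in adult heart, and 5.15 and 4.64 in the fetal hearts. It had the largest difference of the cycle from adult heart, 23.5-fold (-4.56 ± 0.25, adjusted p = 0.000334), and was 3.03-fold below fetal heart (adjusted p = 0.00195). Idh3a, the catalytic subunit, was 4.34-fold and Idh3g 2.45-fold below fetal heart (adjusted p = 0.00157 and 0.00861), and against adult heart they were 11.3-fold and 7.99-fold lower.

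The enzymes of the later steps were all lower in CMPs. Against fetal heart the differences were -1.09 for Ogdh and -1.07 for Dlst (the oxoglutarate dehydrogenase complex), -0.90 for Sucla2, -1.31 for Suclg1 and -0.98 for Suclg2 (succinyl-CoA ligase), -1.72 for Fh1 (fumarase), and -2.09 for Mdh1 and -1.28 for Mdh2 (malate dehydrogenases). These 8 members had adjusted p values of 0.00185 to 0.0255 in that comparison. Against adult heart the differences of the same members ran from -1.86 (Suclg2) to -3.64 (Ogdh), with adjusted p values of 0.000394 to 0.00329. Mdh1, the cytosolic malate dehydrogenase, read 5.06, 5.13, 5.19 and 5.15 in CMPs, 8.75 in adult heart, and 7.66 and 6.79 in the fetal hearts, with no overlap of cells and hearts. The dimmest of 3 Ogdh probes gave a CMP minus fetal difference of 0.56, where the others gave -1.09 and -1.20.

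Adult heart was called higher than fetal heart for 10 of 14 citrate cycle members, with a median difference of 1.57, and none was called lower. The shares over all genes tested were 18.8% called higher and 18.2% lower. Idh3b differed most (2.96 ± 0.28, 7.76-fold, adjusted p = 0.00197), followed by Ogdh (2.55 ± 0.40, 5.86-fold, adjusted p = 0.00775). Cs, Idh3a, Idh3g, Dlst, Sucla2, Suclg1, Suclg2 and Mdh1 were also called, by 0.88 to 2.16. The other 4 did not pass the test: Fh1 at 1.09, Mdh2 at 1.21 and Idh2 at 0.91 above fetal heart, and Idh1 at -0.72 (adjusted p = 0.0680, 0.0560, 0.0708 and 0.0745). In glycolysis adult heart was called higher for Hk2 (1.95), Pfkm and Eno3 (2.80), and lower for Aldoc, Pgam1 (-1.18) and Eno1 (-1.70). With 1 adult array, its own spread is not measured and is assumed to be that of the other groups.

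The array also carries 36 further genes of these pathways, listed beside the members as isozymes, regulators and subunits. In CMPs against fetal heart 29 of them were tested, with 4 called higher and 16 lower and a median of -0.92. Of all genes tested there, 22.8% were called higher and 25.2% lower. Against adult heart 31 were tested, with 6 higher and 21 lower, where 24.6% of all genes were called in each direction. Adult against fetal heart gave 16 higher and 4 lower of 31, where 18.8% of all genes were called higher and 18.2% lower. H6pd, which runs the oxidative pentose phosphate steps inside the endoplasmic reticulum, was 10.1-fold higher in CMPs than in fetal heart and 10.8-fold higher than in adult heart (adjusted p = 0.000200 and 0.000493). Pcx, the pyruvate carboxylase that refills the cycle, was 1.99-fold higher than in fetal heart (adjusted p = 0.0166).

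Among those called lower against fetal heart, Slc2a3, a high-affinity glucose transporter, was 12.0-fold lower in CMPs (-3.59 ± 0.30, adjusted p = 0.000604). Hk3, a hexokinase of blood cells, was not well above background on any CMP array (means of -6.01 in CMPs and -2.71 in fetal heart). It was at least 3.49-fold lower, the bound set by the lowest signal well above background on each dim array. Hk3 entered the test only through the fetal arrays, where it was higher, so its p-value is no support and is not given. Fbp2, the muscle fructose bisphosphatase, was not well above background in any CMP or fetal array, and it entered the tests only through the adult array. CMPs were at least 36.0-fold below adult heart and adult heart at least 36.1-fold above fetal heart, with p-values left out for the same reason. Slc2a3 was lower in adult than in fetal heart (-2.96 ± 0.42, adjusted p = 0.00571). Pdk3, a kinase that inhibits pyruvate dehydrogenase, was 9.03-fold higher in CMPs than in adult heart (adjusted p = 0.000775), and adult was 18.6-fold below fetal heart (adjusted p = 0.000943). The 4 succinate dehydrogenase subunits, Sdha, Sdhb, Sdhc and Sdhd, were called lower in CMPs than in either heart, by -0.92 (Sdhc) to -1.74 (Sdhb) against fetal heart. Among all genes tested, 25.2% were called lower against fetal and 24.6% against adult heart.

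Proliferation markers also differed between cells and hearts, with CMPs between adult and fetal heart. The 7 of them summed to 38.7 to 89.8 in linear signal in CMPs, 4.99 in adult heart and 221 to 244 in fetal hearts. All 7 were called in each of the 3 comparisons. The shares over all genes tested were 48% for CMPs against fetal heart, 49.3% against adult heart and 37% for adult against fetal heart. The part of these markers in the differences of the enzymes was not tested.

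Between postmortem and living CMPs no member passed the test, where 0.105% of 19013 genes were called by limma. At an unadjusted p under 0.05 there were 4 members (1 higher and 3 lower), where 11.1% of all genes had one (5.66% higher and 5.39% lower). The arrays of the 2 sources did not overlap for 19 members, 8 higher and 11 lower in postmortem cells, where 44% of all genes tested had no overlap (23.9% higher and 20.1% lower). Aldoc had the largest difference: -1.53 and -0.74 in postmortem atrial and ventricular cells, against 1.53 and 1.76 in living ones. Both chambers thus differed in the same direction, by -3.06 in atrial and -2.50 in ventricular cells, with -2.78 ± 0.36 in the fit (6.89-fold lower, adjusted p = 0.114), and 0.394% of all genes tested lay lower. With normexp background correction, or with dim probes kept in, the result for Aldoc, postmortem against living CMP, was called (adjusted p = 0.0434 and 0.0359).

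Hk2 read -1.15 and 1.21 in postmortem and 1.62 and 2.40 in living cells, so that the postmortem atrial array alone was far from the rest (-1.98 ± 0.44, adjusted p = 0.258). Without the postmortem atrial array the difference rests on the ventricular pair and was -1.19. Pfkl read 2.30 and 2.74 in postmortem cells against 3.12 and 3.71 in living cells (-0.89 ± 0.20, adjusted p = 0.257). Idh3b ran the other way, with 3.93 and 3.37 in postmortem cells and 3.07 and 2.83 in living cells (0.70 ± 0.23, adjusted p = 0.373). None of these 3 passes the test after adjustment. Pgam2 had a mean difference of -1.43 ± 0.86 (adjusted p = 0.611), but its chambers disagreed.

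**Figure D4:**
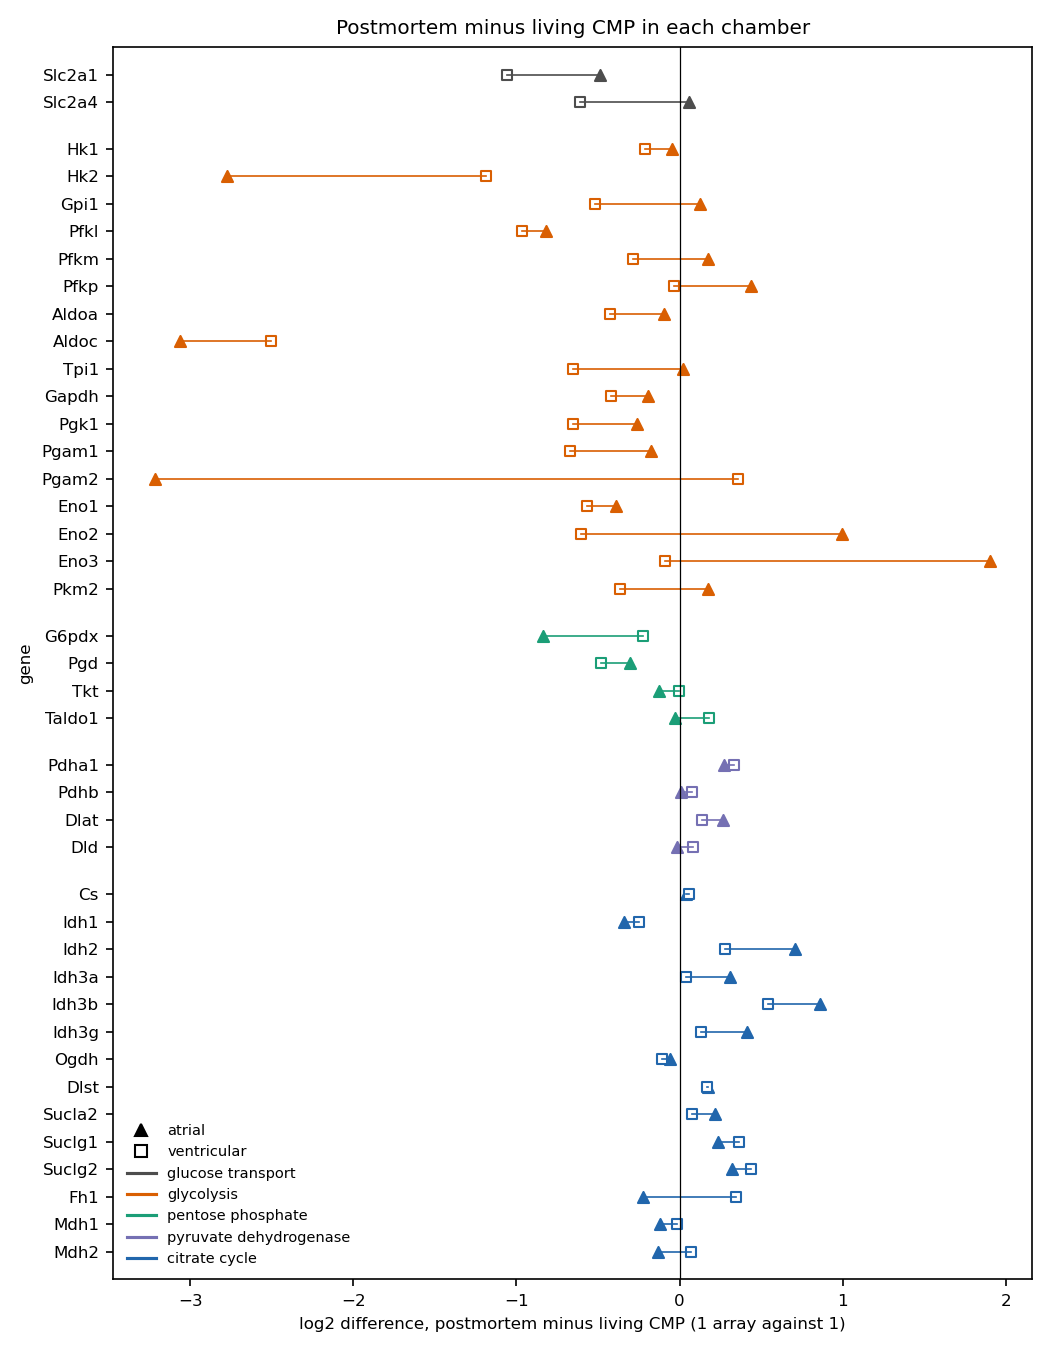
Log2 difference of each member, postmortem minus living CMP, in atrial (triangles) and ventricular (open squares) cells, 1 array against 1 each. Ventricular points of transport and glycolysis lie left of 0 for 18 of 19 members, atrial points for 11 of 19, and Pgam2 and Eno3 have the longest lines.

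By pathway, 16 of the 19 transport and glycolysis members had a difference below 0, with a median of -0.31, where 49.3% of all genes tested were below 0 and their median was 0.01. Of the 18 pyruvate dehydrogenase and citrate cycle members, 14 were above 0, with a median of 0.16, where 50.7% of all genes were above 0. The glycolytic side came mainly from the ventricular pair. There 18 of 19 were below 0 with a median of -0.57, and 52.6% of all genes well above background on both arrays were below 0. In the atrial pair 11 of 19 were below 0 with a median of -0.09, and 44.7% of all genes were below 0. The living ventricular array was also above the living atrial array for 16 of 19, with a median of 0.50, where 59.2% of all genes were. Postmortem ventricular cells were above postmortem atrial cells for 13 of 19, with a median of 0.21, where 47.8% of all genes were. The citrate cycle side had 15 of 18 above 0 in the ventricular pair, where 47.4% of all genes were above 0, and 12 of 18 in the atrial pair, where 55.3% were. No single one of these differences passed the test, and members of a pathway share arrays, so the counts describe these 4 arrays.

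Between the same arrays, no gene of the hypoxia response or the proliferation list was called (lowest adjusted p = 0.194 and 0.188). For the counts below, 11.1% of all genes tested had an unadjusted limma p under 0.05, 5.66% higher and 5.39% lower in postmortem cells. The 8 hypoxia response genes, such as Vegfa and Bnip3, were below 0 for 6 members, 5 of them at an unadjusted p under 0.05, and their summed linear signals were 87.9 and 154 in postmortem atrial and ventricular cells against 163 and 383 in living atrial and ventricular cells. The 7 proliferation markers were all above 0 in postmortem cells, with a median of 0.96, and all 7 had an unadjusted p under 0.05. Pdk1, the pyruvate dehydrogenase kinase, differed by -1.33 ± 0.28 (adjusted p = 0.257), and Pfkfb3, which makes the activator of phosphofructokinase, by -1.04 ± 0.27 (adjusted p = 0.307). Of the 27 further pathway genes tested, none was called and 5 had an unadjusted p under 0.05, all lower in postmortem cells. Whether these lists bear on the enzymes was not tested.

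Ventricular against atrial CMPs gave no called member, and 0% of 18912 genes were called by limma. At an unadjusted p under 0.05 there were 3 members and 8.26% of all genes. Hk2 was higher in ventricular cells in both sources, by 2.37 in postmortem and 0.78 in living cells (1.57 ± 0.44, adjusted p = 0.447). Pfkl was higher by 0.44 and 0.59 (0.52 ± 0.20, adjusted p = 0.577). Eno3 was lower, by -2.50 in postmortem and -0.50 in living cells (-1.50 ± 0.57, adjusted p = 0.575), with the postmortem atrial array at 3.15 and the other 3 CMP arrays between 0.65 and 1.24. Of the 17 glycolytic members 13 were above 0, with a median of 0.36, where 54.5% of all genes were above 0. The living ventricular array enters both this contrast and that of postmortem with living cells, so the glycolytic counts of the contrasts are not separate results. The hypoxia response list was above 0 for 6 of 8 members, with a median of 0.86.

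An interaction term of source and chamber was past the threshold for 2 of the 41 members, where 2.41% of 19013 genes were called. It sets single arrays against each other. Its spread comes only from the 2 fetal hearts of different genotype (1 residual degree of freedom), pooled by the fit over genes of similar brightness. The error is thus not the gene's own, and the transgenic exceeded the wild-type fetal heart by 1.22 for Pgam2 and 1.14 for Eno3. These values describe 4 arrays and do not show that the difference depends on chamber. For Pgam2, postmortem cells were lower in the atrium (-1.54 in postmortem and 1.67 in living cells) and differed by 0.36 in the ventricle (0.30 and -0.05). The difference of these differences was 3.57. Eno3 was higher in postmortem atrial cells (3.15 against 1.24 in living ones) and differed by -0.09 in the ventricle (0.65 against 0.74), with a difference of differences of -2.00. Neither passed the threshold after quantile normalization.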

How the data were processed

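The authors deposited a scanner table per array whose intensity columns give linear spot brightness, with a processed signal, background-subtracted and detrended according to those files. Feature Extraction (Agilent) made them, in version 10.7.3.1 per the file headers or 9.5.3 per the submitters' processing notes. A series-wide table of log2 values was deposited too; up to 1 constant per array, it matched the log2 processed signal at 100% of probes within 0.001. Its column medians were -4.25, -4.17, -4.21 and -4.13 in CMPs (postmortem atrial, postmortem ventricular, living atrial, living ventricular), -3.60 in adult heart, and -3.87 and -4.03 in transgenic and wild-type fetal heart; its scale is log2, its genes were not centred, and its direction is that of the signal.

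Spots of 1 probe were averaged, 11 probes with outlier flags were left out, none of a member, and each gene took its probe of highest mean. Per array, 46.5% to 52.5% of probes passed the scanner flag for signal above background; the number of arrays limits the precision. Member genes with 1 probe numbered 32, and 9 had several. The test was limma 3.58.1 (R 4.3.3, trend on), fitted once to all 7 arrays with a mean per group (4 groups) and a chamber term within CMPs, leaving 2 residual degrees of freedom. A gene entered a comparison where all arrays of either side had that flag. Adjusted p-values are Benjamini-Hochberg over all genes tested, two-sided, with a threshold of 0.05. Scripts were tested on simulated data. Promoter letters were searched with Python 3.11.15.

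Named members are all those called against or between hearts, and, within CMPs, those with a log2 difference of at least 1 or an unadjusted p under 0.05. Of the further pathway genes, the 2 largest called differences in each direction are named per heart comparison, except some that are not reported here; the succinate dehydrogenase subunits, Pdk1 and Pfkfb3 were named after their values were seen. The members and lists were chosen with earlier results of these data known. Alternatives changed the background correction, normalization, centring, filter, probe choice, trend, model terms and arrays. Sequences are credited to RefSeq, and symbols are those of the array (Pkm2 is Pkm in RefSeq).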

Additional observations from a re-analysis of the deposited data

Results flagged for a closer look

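In 3 members 1 of the 4 CMP arrays stood far from the others by Dixon's test, which flags about 1 in 20 groups by chance. Slc2a4 was at -2.50 in postmortem ventricular cells, where the next array was at -1.94. Tpi1 was at 6.87 in living ventricular cells, where the next was at 6.22. Pdhb was at 4.50 in postmortem ventricular cells and the next at 4.42, in a group whose whole range is small. The postmortem minus living difference in ventricular cells, minus that in atrial cells, was 3.57 for Pgam2 and -2.00 for Eno3. Both rest on 1 array per source and chamber with an error taken from the fetal pair and pooled over genes. Neither passed the threshold after quantile normalization.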

How the results depend on the processing

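Over every alternative run, 26 to 31 members were called between CMPs and fetal heart, 30 to 34 between CMPs and adult heart, and 18 to 28 between adult and fetal heart, and no called member changed direction. The calls of Hk2, Pfkm, Tpi1, Eno2, Tkt and Ogdh against fetal heart, and of Aldoa and Pgam1 against adult heart, and of Hk2, Pgam1, Eno3, Idh3a, Suclg2 and Mdh1 between adult and fetal heart, were lost in at least 1 setting. Calls were gained in at least 1 setting by Aldoa, Gapdh, Pgk1 and Eno1 against fetal heart, by Hk1, Gapdh and Pfkp against adult heart, and by Aldoa, Gapdh, Pgam2, Eno2, G6pdx, Idh2, Fh1 and Mdh2 between adult and fetal heart. Centring on the median of probes well above background moved the median of all genes to -0.18 in CMPs against fetal heart, -0.23 against adult heart and 0.15 in adult against fetal heart; the members' medians were then -1.23, -2.61 and 1.16.

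Between postmortem and living CMPs, where no member was called, 1 member (Aldoc) was called with normexp background correction and 1 (Aldoc) with no filter on dim probes. Leaving out 1 array at a time gave 0 to 4 calls between the sources: without an atrial array 1, without a ventricular array 4 (Aldoc, Eno3, Hk2 and Pgam2), and 0 without a fetal array. For ventricular against atrial cells that range was also 0 to 4: 4 without a living array (Eno2, Eno3, Hk2 and Pgam2), 1 without a postmortem array (Pgam2), and 0 without a fetal one. Each such fit leaves 1 CMP array against 1, assumed to vary like the other groups. Pgam2 then reversed, with a postmortem minus living difference of 0.36 without the postmortem atrial or the living atrial array, by construction the ventricular pair, against -3.21 without a ventricular array. Of the interaction of source and chamber, 0 members were called after quantile normalization and 2 with normexp; the cause was not tested. The slide could not be used as a block, since there was 1 slide and 1 scan. No paired analysis was possible because the replicate numbers stand for chamber in CMPs, which is a term of the fit, and for genotype in fetal heart.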
